A study of Mus musculus with 3 samples.

Results

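B cell transcription factor genes were followed through the blood cells of young, aged and glycyrrhizic acid treated aged mice. The 10 genes, Pax5, Ebf1, Spib, Bach2, Id3, Irf4, Irf8, Zbtb20, Zbtb32 and Bhlhe41, were the rows of the deposited gene tables that carried these symbols, of 32285 genes in all, and each of them had UMIs (unique molecular identifiers, each counting 1 captured RNA molecule) in every library. Peripheral blood mononuclear cells (PBMCs) of C57BL/6 mice, all female according to the methods of the study, were profiled by droplet-based single-cell RNA sequencing (10x Genomics 3' chemistry), with 1 library per group. The young mice were 8 weeks old and labelled as untreated. The aged mice were 16 months old and also labelled as untreated, although the methods state that control mice received tail vein injections of phosphate-buffered saline. The aged-GA mice were 16 months old and received glycyrrhizic acid (GA), a saponin of licorice root, for 1 month, by tail vein injection every other day according to the methods. The study describes several mice in each group. Since each group is 1 library, cells of different mice are not told apart here, and how their blood was combined was not given in the sources used here.

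B cell identity is built by a small set of transcription factors. Ebf1 and Pax5 commit lymphoid progenitors to the B lineage and keep B cell genes on in the mature cell, while Spib, an ETS family factor, and Irf8 act in mature B cells and also in dendritic cells. Bach2 holds back plasma cell differentiation, Id3 blocks the DNA binding of E proteins, and Irf4 is needed for plasma cells. Zbtb20 is expressed in plasma cells and innate-like B cells, Zbtb32 in innate-like and memory B cells, where it restrains their responses, and Bhlhe41 is a basic helix-loop-helix repressor needed for B-1a cells.

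The genes lie on 7 chromosomes of the mouse genome (RefSeq annotation of GRCm38.p6, the assembly that the submitters' notes call mm10). Pax5 was annotated at chr4:44524748-44710694, Ebf1 at chr11:44618100-45008096, Spib at chr7:44525995-44532087, Bach2 at chr4:32238413-32586109 and Id3 at chr4:136143822-136145392. Irf4 was annotated at chr13:30749233-30766981, Irf8 at chr8:120736358-120756694, Zbtb20 at chr16:42875689-43634392, Zbtb32 at chr7:30589680-30602819 and Bhlhe41 at chr6:145858243-145865420. No value below rests on these positions, since the deposited counts are per gene.

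After the filters, 8851 young, 10238 aged and 12648 aged-GA cells were kept, with 48249945, 53770440 and 75832322 UMIs. Before the filters, between 50 and 62 barcodes were shared by each pair of libraries. The median mitochondrial share of UMIs over all barcodes, also before the filters, differed between libraries. It was 5.06% in the young, 1.86% in the aged and 3.79% in the aged-GA library. Cells were sorted in silico by UMIs of marker genes, none of which was among the 10 genes. The gate for B-like cells (markers that include Cd79a, Cd79b, Ms4a1 and Cd22) held 2037 young, 3807 aged and 5144 aged-GA cells. Within it, follicular B-like cells (markers that include Fcer2a, Ighd and Ccr7) numbered 1126, 2159 and 3274, marginal zone or B-1 B-like cells (led by Fcrl5, Cd9, Mzb1 and Plac8) 27, 70 and 99, and age-associated B-like cells (Itgax, Itgam, Tbx21, Zeb2, Cd80) 7, 48 and 90. Plasma cell-like cells were 1, 36 and 33 in number. The marginal zone or B-1 gate asked for a UMI of Fcrl5 or Cd9 and none of Fcer2a, so its Fcrl5 level was partly set by the gate. Fcrl5 stood at 138, 139 and 122 CPM (UMIs of the gene per 1000000 UMIs of all genes in the same cells) in this gate in the young, aged and aged-GA library, against 3.79 to 6.13 CPM in follicular cells. S1pr3, a marker of marginal zone cells, was at only 0, 2.40 and 4.21 CPM, and marginal zone and B-1 cells were not separated.

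Across all gates, 9 of the 10 genes reached their highest level in a B-like or plasma cell-like gate among gates with at least 20 cells in a library, and Irf8 was the exception, with its highest level in NK-like cells. Each value is a level in CPM, and intervals in parentheses are exact Poisson 95% intervals that cover counting error only. The levels describe 1 library per group. Each cell class was compared with B-like cells, and each B cell subset with follicular cells, within libraries, so that the 3 libraries served as the replicates (edgeR's quasi-likelihood test on UMIs summed per library and gate, with the library as a block and Benjamini-Hochberg adjustment over all genes tested). Libraries with fewer than 20 cells in a gate did not enter that gate's sum, so the plasma cell, age-associated, transitional, interferon-responding, classical monocyte, neutrophil and basophil gates rest on the aged and aged-GA libraries alone. With the library as a block, the p-values measure how the difference between gates varied between these libraries. The libraries differ in age and treatment and are not repeats of 1 group. This spread was estimated over all classes, or over all subsets, together, so gates with fewer libraries borrowed it from the others.

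**Figure D1:**
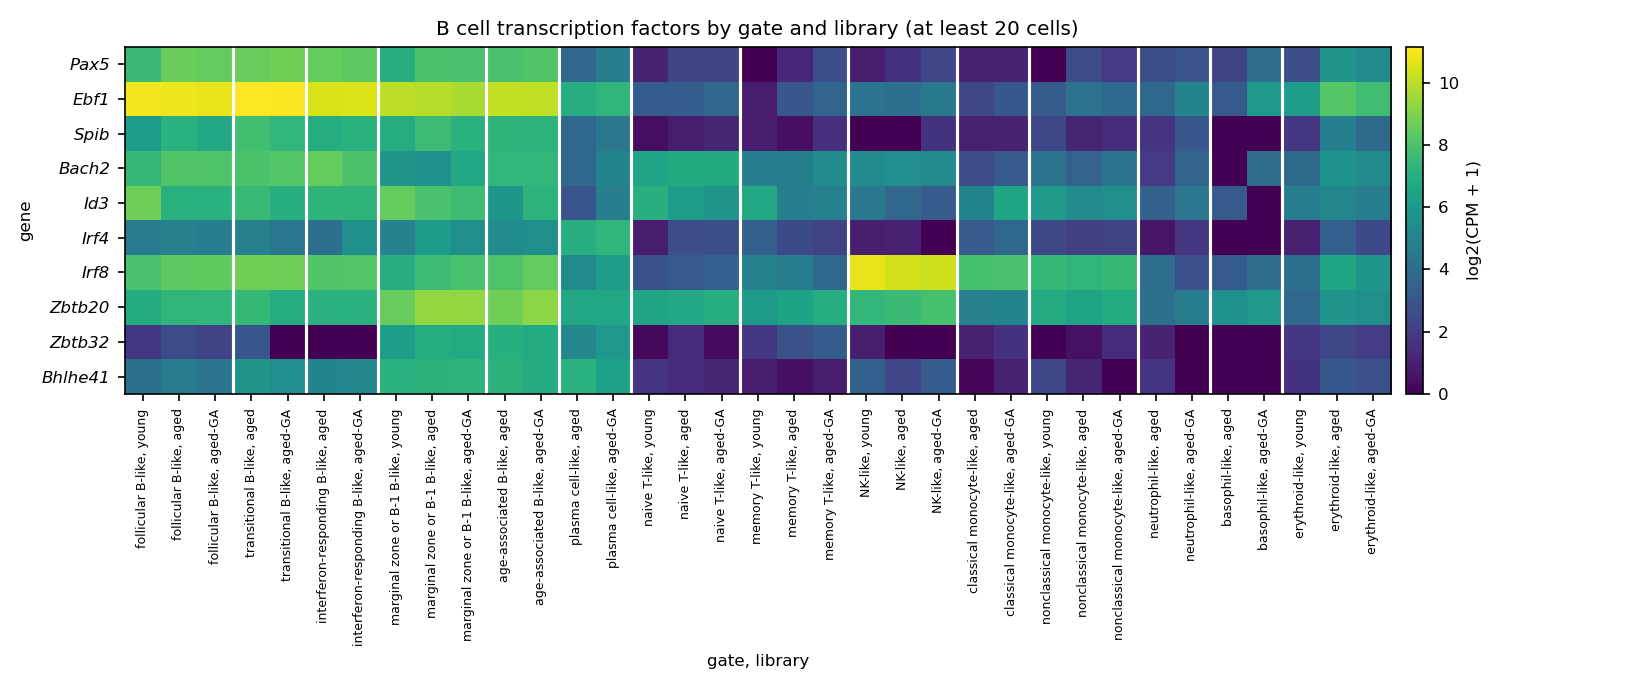
Level of the 10 genes (rows) in each gate and library (columns) with at least 20 cells, as log2(CPM + 1) on the colour scale. Ebf1 and Pax5 are high in all B-like gates, Irf8 is highest in the 3 NK-like columns, and Zbtb32 is above 30 CPM in the marginal zone or B-1, age-associated and plasma cell-like columns alone.

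Pax5 and Ebf1, the factors that set up the B cell programme, were far higher in B-like than in T-like cells. Ebf1 stood at 1995 CPM (1964 to 2026) in the B-like cells of the young library, 1797 CPM (1774 to 1820) in those of the aged and 1690 CPM (1673 to 1707) in those of the aged-GA library. Its level in T-like cells was 9.39, 8.91 and 11.8 CPM. Pax5 stood at 189 CPM (180 to 199), 369 CPM (358 to 379) and 338 CPM (331 to 346) in the B-like cells of these libraries, against 1.16, 3.47 and 4.20 CPM in T-like cells. In both genes the levels in B-like cells lay far above those in T-like cells in every library. With each cell thinned to 2000 UMIs, at least 1 UMI of Ebf1 was found in 95.9%, 94.9% and 94.0% of B-like cells and in 0.777%, 1.65% and 2.31% of T-like cells. Pax5 was found in 29.3%, 51.2% and 48.1% of B-like cells and in 0.152%, 0.649% and 0.799% of T-like cells. Unthinned cells had a median of 3439, 3060 and 3762 UMIs in B-like and 5039, 4517 and 5777 UMIs in T-like cells, and the unthinned shares of Pax5 in B-like cells were 45.8%, 67.2% and 70.5%. The thinning left out 25, 101 and 33 B-like cells and 23, 49 and 26 T-like cells.

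Spib, Bach2 and Id3 were also highest in B-like gates, but Bach2 and Id3 extended into T-like cells. Spib stood at 74.8, 156 and 115 CPM in young, aged and aged-GA B-like cells and at no more than 1.34 CPM in T-like cells of any library. Bach2, at 158, 251 and 247 CPM in B-like cells, was at 89.3, 107 and 107 CPM in naive T-like cells (markers that include Ccr7, Lef1, Dapl1 and Igfbp4) and at 26.2, 26.9 and 40.1 CPM in memory T-like cells. Id3 stood at 408 CPM in young and at 144 and 142 CPM in aged and aged-GA B-like cells, and at 129, 69.4 and 53.7 CPM in naive T-like cells. The levels in B-like cells were above those in naive T-like cells within each library for all of these genes. In edgeR's quasi-likelihood test, Bach2 was 1.90-fold lower in naive T-like than in B-like cells (log2 -0.92, SE 0.16, Benjamini-Hochberg adjusted p = 3.94e-05) and Id3 2.31-fold lower (log2 -1.21, SE 0.24, adjusted p = 0.000174). The call on Id3 was lost without the library block (adjusted p = 0.0709).

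Irf8, a factor of B cells, monocytes and dendritic cells, was higher in NK-like than in B-like cells, and it was the single gene of the 10 that rose in a class other than plasma cell-like cells. It stood at 1725 CPM (1648 to 1804), 1384 CPM (1310 to 1461) and 1262 CPM (1192 to 1335) in NK-like cells of the young, aged and aged-GA library, against 246, 330 and 342 CPM in B-like cells. The groups of 3 values did not overlap. In edgeR's quasi-likelihood test Irf8 rose 4.06-fold in NK-like over B-like cells (log2 2.02, SE 0.24, adjusted p = 1.58e-07), and the call held under all 10 alternatives. Of the other 9 genes, 8 fell in NK-like cells and Zbtb20 was not called (log2 -0.07, SE 0.12, adjusted p = 0.686), where 19.2% of the 11221 genes tested rose and 22.2% fell. Zbtb20 stood at 168, 194 and 237 CPM in NK-like cells and at 128, 198 and 209 CPM in B-like cells, so the ranges overlapped. Irf8 in classical monocyte-like cells was at 239 CPM in the aged and 244 CPM in the aged-GA library, and was not called against B-like cells (log2 -0.31, SE 0.27, adjusted p = 0.313). Plasmacytoid dendritic cell-like cells, a class in which Irf8 and Spib are known to be high, numbered only 2 aged cells and 1 aged-GA cell, which held 46 and 14 UMIs of Irf8 and 4 and 3 UMIs of Spib.

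In the other classes nearly all of the genes were lower than in B-like cells. All 10 fell in naive T-like cells (background 23.2% lower, 20.7% higher) and in memory T-like cells (22.6% lower, 21.6% higher). In nonclassical monocyte-like cells all 10 fell (28.0% lower, 27.7% higher), as they did in neutrophil-like cells (36.0% lower, 31.1% higher). In classical monocyte-like cells 9 fell (31.1% lower, 31.3% higher), in basophil-like cells 9 (16.7% lower, 12.2% higher) and in erythroid-like cells 9 (12.4% lower, 22.6% higher), with Irf8 not called in the first of these and Zbtb32 not called in the other two. The median log2 difference of the 10 genes, -0.91, was nearest to 0 in the erythroid-like class, where Ebf1 stood at 69.9, 290 and 209 CPM. The erythroid-like gate took every cell with more than 10% haemoglobin UMIs, also any that passed the B-like gate, and such cells were not counted apart. Erythroid-like cells also carried transcripts of the 5 B cell markers, at a summed 248, 1096 and 859 CPM against 6152, 6768 and 6774 CPM in B-like cells. The part of these transcripts in the member values was not tested.

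Within B-like cells, the marginal zone or B-1 gate differed most from follicular cells. In edgeR's quasi-likelihood test 6 of the 10 genes rose (Zbtb32, Bhlhe41, Zbtb20, Irf4, Spib and Id3) and 4 fell (Bach2, Ebf1, Irf8 and Pax5), where 11.9% of the 5428 genes tested rose and 9.58% fell. The largest of these differences were in Zbtb32, Bhlhe41 and Zbtb20, all repressors that are known from innate-like B cells or plasma cells.

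Zbtb32 was close to absent from follicular cells, at 2.41, 5.04 and 3.93 CPM in the young, aged and aged-GA library. In marginal zone or B-1 cells it stood at 74.2 CPM (41.5 to 122), 120 CPM (89.0 to 158) and 111 CPM (87.7 to 138), from 15, 50 and 79 UMIs. In age-associated cells it stood at 131 CPM (91.5 to 181) in the aged and 112 CPM (87.2 to 141) in the aged-GA library. All values in both gates were above all values in follicular cells, by 27.1-fold in marginal zone or B-1 cells (log2 4.76, SE 0.28, adjusted p = 8.05e-19, edgeR's quasi-likelihood test) and by 26.8-fold in age-associated cells (log2 4.75, SE 0.31, adjusted p = 8.15e-17). Only genes that passed a filter on low counts were tested, and a gene could pass it through the gates where it was high. Zbtb32 was low in the other B cell subsets of the fit. At least 1 UMI was found in 22.2%, 31.4% and 36.4% of marginal zone or B-1 cells, against 0.355%, 0.741% and 1.16% of follicular cells, at unthinned depth. The former were deeper, with a median of 6263, 5474.5 and 6401 UMIs per cell against 3606, 3108 and 3816.5 in follicular cells, and these shares were not thinned.

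Bhlhe41 stood at 138, 141 and 144 CPM in marginal zone or B-1 cells of the young, aged and aged-GA library and at 16.4, 23.5 and 18.3 CPM in follicular cells. It thus varied little between libraries within the gate, and rose 7.42-fold over follicular cells (log2 2.89, SE 0.16, adjusted p = 1.99e-19, edgeR's quasi-likelihood test). In age-associated cells it was at 142 CPM in the aged and 117 CPM in the aged-GA library, 6.13-fold above follicular cells (log2 2.62, SE 0.20, adjusted p = 1.46e-14). In the young library 28 UMIs stood behind the level in marginal zone or B-1 cells, with an interval of 92.0 to 200.1 CPM.

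Zbtb20 stood at 371, 640 and 639 CPM in marginal zone or B-1 cells, at 428 and 586 CPM in the age-associated cells of the aged and aged-GA library, and at 115, 154 and 160 CPM in follicular cells. The values of both gates lay above all follicular values. It rose 3.96-fold in marginal zone or B-1 cells (log2 1.99, SE 0.10, adjusted p = 1.07e-20, edgeR's quasi-likelihood test) and 3.18-fold in age-associated cells (log2 1.67, SE 0.12, adjusted p = 3.15e-15). The calls on Zbtb32, Bhlhe41 and Zbtb20 in both gates held under every alternative that was run. Among these were the fit without the filter on low counts and leaving out cells called doublets. Doublets made up 4.83% of age-associated, 0.510% of marginal zone or B-1 and 0.335% of follicular cells.

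The same 3 genes were raised in both gates. Bach2 was called lower in both, but its call in age-associated cells was lost under alternatives given below. The promoter windows of these genes (250 bases before to 50 after an annotated start, from RefSeq, GRCm38.p6) are shown in the sense of the gene. Motif matches of a search of both strands are in capitals. For Zbtb32, which has 2 windows, the one with a match is given, at chr7:30598860-30599159 on the minus strand. The window of Bhlhe41 is chr6:145865371-145865670 on the minus strand, that of Zbtb20 chr16:43247034-43247333 on the plus strand, and that of Bach2 chr4:32417185-32417484 on the plus strand. Against the gene positions given above, the Bhlhe41 window spans the outermost start of the gene. The windows of Zbtb32, Zbtb20 and Bach2 lie inside the gene and do not hold its outermost start.
Zbtb32: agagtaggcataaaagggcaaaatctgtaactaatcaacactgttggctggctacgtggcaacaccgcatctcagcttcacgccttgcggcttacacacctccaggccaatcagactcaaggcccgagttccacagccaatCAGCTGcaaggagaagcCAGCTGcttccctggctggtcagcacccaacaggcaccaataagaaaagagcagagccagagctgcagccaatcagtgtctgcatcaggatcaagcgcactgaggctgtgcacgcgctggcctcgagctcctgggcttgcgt
Bhlhe41: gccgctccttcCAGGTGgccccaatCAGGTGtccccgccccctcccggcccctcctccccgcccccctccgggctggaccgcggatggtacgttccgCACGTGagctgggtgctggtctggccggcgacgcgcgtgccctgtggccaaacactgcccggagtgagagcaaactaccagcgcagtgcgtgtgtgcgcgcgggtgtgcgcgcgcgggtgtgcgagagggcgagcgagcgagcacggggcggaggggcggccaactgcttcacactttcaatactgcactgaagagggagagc
Zbtb20: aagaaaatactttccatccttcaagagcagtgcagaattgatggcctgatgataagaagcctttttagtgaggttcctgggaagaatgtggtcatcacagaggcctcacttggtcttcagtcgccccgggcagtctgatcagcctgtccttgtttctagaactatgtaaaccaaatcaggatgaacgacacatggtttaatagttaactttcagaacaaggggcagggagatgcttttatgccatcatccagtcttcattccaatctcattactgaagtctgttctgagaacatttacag
Bach2: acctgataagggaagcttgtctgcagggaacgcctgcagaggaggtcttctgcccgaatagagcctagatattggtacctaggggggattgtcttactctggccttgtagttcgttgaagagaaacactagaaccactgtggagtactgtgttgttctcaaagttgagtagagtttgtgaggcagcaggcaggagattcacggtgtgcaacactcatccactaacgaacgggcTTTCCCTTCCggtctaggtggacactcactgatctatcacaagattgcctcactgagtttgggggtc

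The Zbtb32 window held the E-box CAGCTG, the kind of site bound by E proteins, at 2 positions, and 16.3% of all 32851 windows held at least 1. The Bhlhe41 window held CAGGTG at 2 positions and CACGTG, a class of E-box that Bhlhe41 itself is known to bind, at 1 position, where 20.2% and 7.15% of all windows held these. The Bach2 window held the ETS-IRF composite element on the other strand, as did 2.72% of all windows. The Zbtb20 window held none of the 8 motifs searched. Of the 13 windows of the 10 genes, none held the palindromic EBF1 motif (0.904% of all windows), the octamer ATGCAAAT (1.74%) or the BACH motif (0.155%), and 1, a window of Ebf1, held the interferon-stimulated response element (3.44%). The matches describe letters in these windows, and no binding was measured.

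Bach2, the repressor of plasma cell differentiation, showed the opposite pattern in marginal zone or B-1 cells, at 54.4, 47.9 and 102 CPM against 172, 274 and 265 CPM in follicular cells. These values came from 11, 20 and 73 UMIs and lay below all follicular values. It fell 3.22-fold (log2 -1.69, SE 0.15, adjusted p = 2.19e-12, edgeR's quasi-likelihood test). Ebf1 fell 1.92-fold (log2 -0.94, SE 0.09, adjusted p = 2.55e-12), from 2031, 1869 and 1758 CPM in follicular cells to 1058, 992 and 857 CPM. Irf8 fell 1.53-fold (adjusted p = 5.14e-05) and Pax5 1.44-fold (adjusted p = 0.000404), the latter call being lost without the library block (adjusted p = 0.205). In age-associated cells Bach2, at 167 and 166 CPM in the aged and aged-GA library, fell 1.66-fold (adjusted p = 0.00059), and Ebf1, at 1115 and 1083 CPM, fell 1.68-fold (adjusted p = 2.37e-07). Pax5, at 247 and 278 CPM, fell 1.40-fold (adjusted p = 0.00821). The calls on Bach2 and Pax5 in age-associated cells were lost without the aged library (adjusted p = 0.0573 and 0.378), without the aged-GA library (0.320 and 0.241) and without the library block (0.275 and 0.690), and that on Bach2 also in DESeq2 (0.133).

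Irf4, Spib and Id3 differed less and less steadily. Irf4 stood at 29.7, 67.1 and 46.3 CPM in marginal zone or B-1 cells, from 6, 28 and 33 UMIs, against 22.6, 27.6 and 25.1 CPM in follicular cells. It rose over follicular cells (log2 1.00, SE 0.23, adjusted p = 0.000687, edgeR's quasi-likelihood test), but the interval in the young library, 10.9 to 64.6 CPM, held the follicular value, and the call was lost without the aged (adjusted p = 0.156) or the aged-GA library (adjusted p = 0.0914). Spib, at 119, 201 and 136 CPM against 67.7, 140 and 106 CPM in follicular cells, rose 1.43-fold (adjusted p = 0.00162), a call lost without the aged library (adjusted p = 0.152) and without the library block (adjusted p = 0.0954). Id3, at 361, 247 and 208 CPM, was above the follicular value in the aged and aged-GA library, where follicular cells had 134 and 139 CPM, and below it in the young library, where they had 404 CPM. Its rise of 1.39-fold (adjusted p = 0.00648) was lost under 5 of the 10 alternatives, among them leaving out the aged library (adjusted p = 0.511). In age-associated cells Irf4, Spib, Id3 and Irf8 were not called (adjusted p from 0.110 to 0.676), which left 3 genes higher and 3 lower there, where 5.43% of the 5428 genes tested rose and 2.78% fell.

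**Figure D2:**
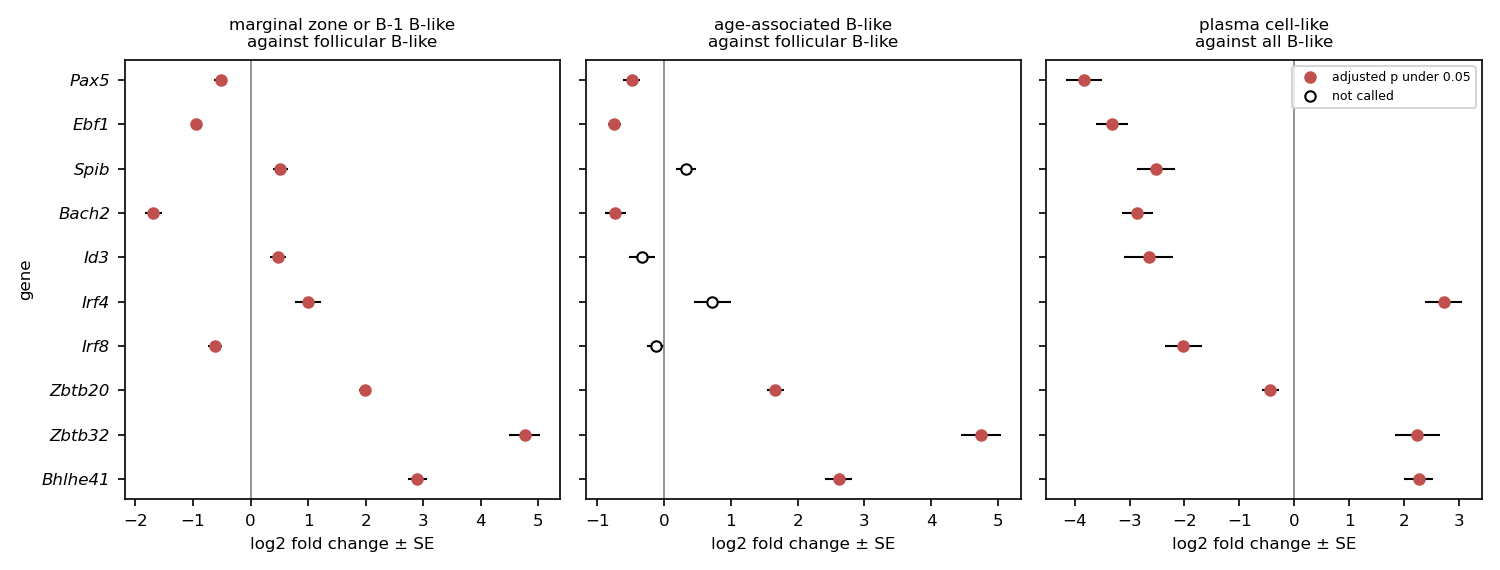
Fitted log2 fold change of the 10 genes, with its SE as a bar, in marginal zone or B-1 and in age-associated B-like cells against follicular B-like cells and in plasma cell-like against B-like cells. Filled points passed an adjusted p of 0.05. Zbtb32 and Bhlhe41 are to the right of 0 in each panel, and Bach2, Ebf1 and Pax5 to the left.

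None of the 10 genes was called in transitional B-like cells (Cd93, Cd24a, Vpreb3), which held 33 aged and 49 aged-GA cells, or in interferon-responding B-like cells (Ifit3, Isg15 and others), with 30 and 53 cells. Across all genes 0.516% rose and 0.387% fell in the former and 2.21% and 0.0737% in the latter. In transitional cells the lowest p of the 10 genes in edgeR's quasi-likelihood test were those of Bhlhe41 (log2 1.18, SE 0.38, adjusted p = 0.180), Spib (log2 0.57, SE 0.19, adjusted p = 0.217) and Ebf1 (log2 0.21, SE 0.10, adjusted p = 0.513). In interferon-responding cells the lowest was that of Ebf1 (log2 -0.24, SE 0.11, adjusted p = 0.474). DESeq2 also called none of the 10 in either gate. Zbtb32 had no UMI in interferon-responding cells of the aged or aged-GA library, which with 3 counts as the limit allows up to 24 and 13.1 CPM.

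Other B cell transcription factors divided in the same gates. Of 28 listed, 24 were tested against follicular cells, and in marginal zone or B-1 cells 6 rose and 6 fell. The E protein inhibitor Id2 rose by 1.94 on the log2 scale (adjusted p = 3.87e-12, edgeR's quasi-likelihood test), Myc by 1.14 (adjusted p = 2.66e-07) and the E protein Tcf4 by 0.88 (adjusted p = 2.06e-08), while Mef2c fell by 0.98 (adjusted p = 3.32e-11) and Foxo1 by 0.86 (adjusted p = 3.93e-06). In age-associated cells 4 rose and 3 fell, with Id2 at 1.90 (adjusted p = 6.46e-09), Bhlhe40, the paralogue of Bhlhe41, at 1.00 (adjusted p = 0.00894) and Tcf4 at 0.87 (adjusted p = 1.78e-06), and with Zeb2, which is itself a marker of that gate. Of 12 B cell identity genes outside the gates, such as Blk, Cr2 and Cxcr5, 3 rose and 5 fell in marginal zone or B-1 cells and 1 rose and 2 fell in age-associated cells. In marginal zone or B-1 cells Blk rose (log2 0.84, adjusted p = 2.24e-07, edgeR's quasi-likelihood test) and Cr2 fell (log2 -1.17, adjusted p = 1.99e-06). Cxcr5 was not called there (log2 0.46, adjusted p = 0.0921). The gate is named after its marker list, and how many of its cells were marginal zone cells was not tested.

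The marginal zone or B-1, age-associated and multiply gated B-like cells were few and yet held much of some of these transcripts. They made up 1.92%, 3.55% and 4.20% of young, aged and aged-GA B-like cells. They held 59.5%, 58.6% and 52.0% of the Zbtb32 UMIs of all B-like cells, 17.1%, 23.6% and 32.6% of those of Bhlhe41 and 13.1%, 17.6% and 19.9% of those of Zbtb20. For Ebf1 the share was 1.83%, 3.59% and 4.02%, and for Bach2 1.51%, 2.35% and 3.83%. These cells held 3.74%, 6.62% and 7.03% of the UMIs of all genes in B-like cells. The shares of Zbtb32, Bhlhe41 and Zbtb20 were above, and those of Ebf1 and Bach2 below, the share of all genes in each library. Irf4 (7.74%, 12.7% and 11.3%) and Spib (5.57%, 7.60% and 8.76%) were also above it in each library. Pax5 and Irf8 were below it, and Id3 was below it in the young library alone. The shares rest largely on the UMIs behind the calls above and are no separate support for them.

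In plasma cell-like cells the 10 genes were rearranged again. The cells of this gate carried Jchain, itself a marker of the gate, at 19960 CPM in the aged and 22270 CPM in the aged-GA library. The B cell markers summed to 1703 and 1655 CPM in them, against 6768 and 6774 CPM in B-like cells. Mki67, a gene of dividing cells, stood at 142 and 91.2 CPM in them. Against B-like cells 3 genes rose and 7 fell, where 16.4% of all genes rose and 19.2% fell. The median log2 difference over all genes tested was -0.29. The kappa light chain gene Igkc alone stood at 193300 and 215600 CPM in plasma cell-like cells, against 10160 and 11020 CPM in B-like cells. This lowers the CPM of all other genes there, while the fold changes rest on TMM scaling.

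Irf4, which plasma cells need, was the most raised of the 10. It stood at 131 CPM (105 to 163) in the aged and 158 CPM (131 to 189) in the aged-GA library, from 83 and 116 UMIs, with a UMI in 72.2% and 87.9% of the cells. These shares were not thinned. Plasma cell-like cells had a median of 16364 and 21579 UMIs, against 3060 and 3761.5 in B-like cells. The levels in B-like cells of the same libraries were 32.3 and 26.5 CPM. The rise of 6.61-fold (log2 2.72, SE 0.34, adjusted p = 9.66e-07, edgeR's quasi-likelihood test) was called under every alternative. Bhlhe41 stood at 138 and 81.7 CPM, 4.83-fold above B-like cells (log2 2.27, SE 0.26, adjusted p = 3.57e-07), and Zbtb32 at 34.8 and 61.3 CPM, 4.74-fold above (log2 2.25, SE 0.41, adjusted p = 0.000134). The Zbtb32 value rests on 22 and 45 UMIs, and the call was lost without the aged-GA library (adjusted p = 0.141).

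The genes of the B cell programme were lower in plasma cell-like cells. Pax5 stood at 12.7 and 24.5 CPM, a fall of 14.3-fold against B-like cells (log2 -3.83, SE 0.32, adjusted p = 1.31e-09, edgeR's quasi-likelihood test), and Ebf1 at 120 and 155 CPM, a fall of 9.95-fold (log2 -3.31, SE 0.29, adjusted p = 3.61e-09). Bach2 (12.7 and 31.3 CPM) fell 7.26-fold, Id3 (6.33 and 25.9 CPM) 6.30-fold, Spib (12.7 and 20.4 CPM) 5.74-fold and Irf8 (38.0 and 68.1 CPM) 4.05-fold, with adjusted p of 4.67e-05 or lower. The plasma cell-like values of these 6 genes lay below their B-like values in both libraries. Zbtb20, at 99.7 and 99.4 CPM, was called lower (log2 -0.44, adjusted p = 0.0306), but this call was lost under 6 alternatives, with adjusted p between 0.0569 and 0.384. Among the other B cell transcription factors, 3 of 28 rose and 15 fell. Prdm1, the factor that drives plasma cell differentiation, rose by 5.16 on the log2 scale (adjusted p = 4.83e-12), Tcf4 rose by 0.93 (adjusted p = 1.66e-05), and Xbp1, a marker of the gate, was the third. Foxp1 fell by 2.40 (adjusted p = 3.70e-10).

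The design also compares the groups, and here each group was 1 library, so no test was run and a difference between groups cannot be told apart from a difference between libraries. In B-like cells of aged over young mice, Pax5 was 1.95-fold and Spib 2.07-fold higher and Id3 was lower, at 0.355 of its young level, while Ebf1 was at 0.901 of its young level. A gene was called where its level differed at least 1.5-fold, the gene having 100 or more UMIs in the pair of libraries together. Of the 10 genes 6 were called higher and 1 lower, where 22.6% of the 8646 genes counted were called higher and 2.26% lower. The median log2 ratio (of CPM + 1) over all these genes was itself 0.28, and that of the 10 genes 0.65. With scale factors by the trimmed mean of M values (TMM), which brought the median of all genes to 0.04, 3 of the 10 genes were higher and 1 lower, and the background was 9.35% higher and 5.47% lower.

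Pax5 had a log2 ratio, aged over young, of 0.96 (counting interval 0.88 to 1.05) and Spib of 1.05 (0.93 to 1.20) in B-like cells. The ratios of Pax5 and Spib were 0.68 and 0.78 above the median of all genes. Bach2 had a ratio of 0.66 (0.57 to 0.76) and Zbtb20 of 0.63 (0.53 to 0.74), which are 0.39 and 0.35 above that median, and both were under 1.5-fold with TMM scaling, as was Bhlhe41. Irf4, at 0.48 (0.25 to 0.76), and Irf8, at 0.42 (0.35 to 0.50), were not called and lay 0.21 and 0.14 above the median. Ebf1 had a ratio of -0.15 (-0.18 to -0.12), 0.43 below the median of all genes.

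Id3 was the gene that was lower in aged B-like cells, with a log2 ratio of -1.49 (-1.58 to -1.42). At 2000 UMIs per cell, 48.9%, 22.3% and 22.2% of the B-like cells of the young, aged and aged-GA library held a UMI of Id3, and 21.3%, 10.2% and 7.40% of T-like cells. The lower level was found also in some other gates, with ratios of -0.89 (-1.09 to -0.72) in naive T-like and -1.95 (-2.42 to -1.56) in memory T-like cells, and of -0.55 (-0.99 to -0.09) in marginal zone or B-1 cells. In NK-like cells, with 23 and 11 UMIs, the ratio was -0.78 and its interval (-2.02 to 0.26) held 0. So did that in nonclassical monocyte-like cells (-1.49 to 0.19). Erythroid-like cells went the other way, at 25.0 CPM (21.2 to 29.2) in the young and 34.0 CPM (30.5 to 37.8) in the aged library. Genes known to respond to the stress of cell preparation, a list of 10 that holds Fos, Jun and Egr1, were also counted in B-like cells. Aged over young, their median was -0.64, with 4 of 8 lower, and aged-GA over aged it was 0.54, with 2 higher. Other B cell transcription factors that were lower in aged B-like cells were Klf2 (-0.76), Id2 (-1.14) and Myc (-1.18), against 8 that were higher, of 27 counted.

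Zbtb32 and Bhlhe41, the genes of the marginal zone or B-1 and age-associated gates, had log2 ratios of 1.74 and 0.77, aged over young, in all B-like cells. Zbtb32 had a level of 4.67 CPM in the young and 17.9 CPM in the aged library, from 37 and 237 UMIs. Within follicular cells alone, Bhlhe41 had a ratio of 0.49 and Zbtb20 of 0.42, both under 1.5-fold, and Zbtb32 had 11 and 38 UMIs, too few to be counted. B-like cells that passed no subset gate numbered 841 young, 1450 aged and 1552 aged-GA cells. In them Zbtb32 stood at 1.369, 12.991 and 16.996 CPM, from 4, 59 and 99 UMIs. The young and aged intervals there did not overlap, although these UMIs were also too few for a call. The higher Zbtb32 level in aged B-like cells was thus not confined to the marginal zone or B-1 and age-associated gates. Within marginal zone or B-1 cells Bhlhe41 had a level of 138 CPM in the young and 141 CPM in the aged library, a ratio of 0.03 (-0.64 to 0.73), while Zbtb20 had 0.79 (0.41 to 1.18) and Pax5 1.09 (0.46 to 1.78). In follicular cells 3 of 9 genes counted were higher (Pax5, Spib and Bach2) and 1 lower (Id3), where 21.3% of 7534 genes were higher and 2.38% lower. These are the genes called in all B-like cells but for Zbtb20, Zbtb32 and Bhlhe41.

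**Figure D3:**
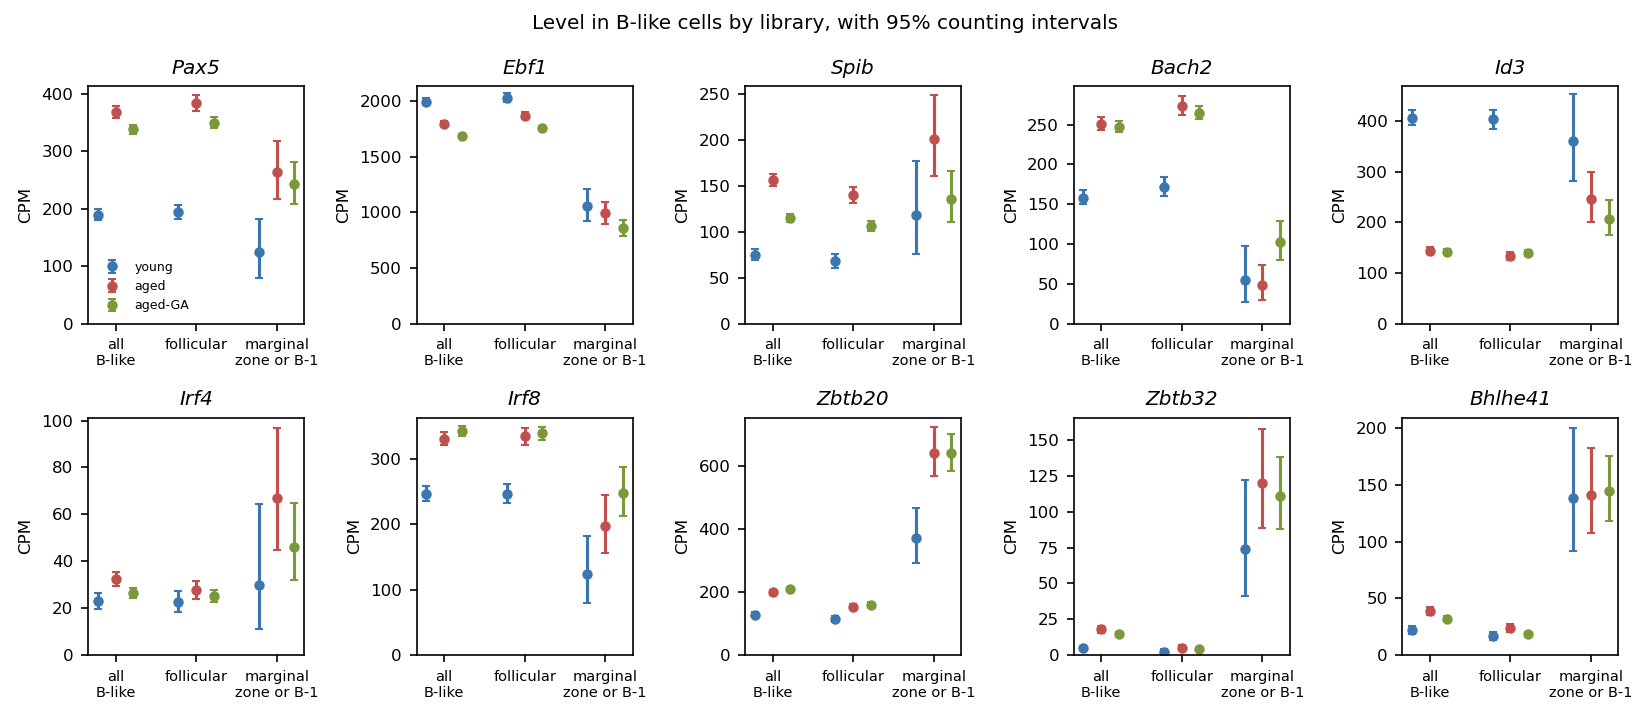
Level in CPM (vertical axes from 0) of each of the 10 genes in all B-like, follicular B-like and marginal zone or B-1 B-like cells of the young, aged and aged-GA library, with exact Poisson 95% intervals as bars. Pax5 is lower and Id3 higher in the young library than in both others in all B-like and follicular cells, and Zbtb20, Zbtb32 and Bhlhe41 are higher in marginal zone or B-1 than in follicular cells of each library.

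Between aged-GA and aged mice, none of the 10 genes differed 1.5-fold in B-like cells, where 0.705% of the 9510 genes counted were called higher and 1.02% lower. This comparison shares the aged library with the one between aged and young mice. Spib had the ratio furthest from 0, at 156 CPM without and 115 CPM with GA, a log2 ratio of -0.44 (-0.52 to -0.36), and at 140 and 106 CPM in follicular cells. Irf4 (-0.28), Zbtb32 (-0.28), Bhlhe41 (-0.25) and Pax5 (-0.12) were also lower with intervals that did not hold 0, as was Ebf1 (-0.09). Bach2 (-0.02, -0.09 to 0.04), Id3 (-0.02, -0.10 to 0.06) and Irf8 (0.05, -0.005 to 0.10) had intervals that held 0, and Zbtb20 had 0.07 (0.004 to 0.14). The median ratio of the 10 genes was -0.11 and that of all genes counted -0.05. The 28 other B cell transcription factors held 1 gene, Zbtb18 (-0.64), past 1.5-fold, of 27 counted, and the 12 identity genes none. In marginal zone or B-1 cells, Bach2 stood at 47.9 CPM without and 102 CPM with GA, a ratio of 1.08 (0.36 to 1.89), from 20 and 73 UMIs, fewer than the 100 required for a call.

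**Figure D4:**
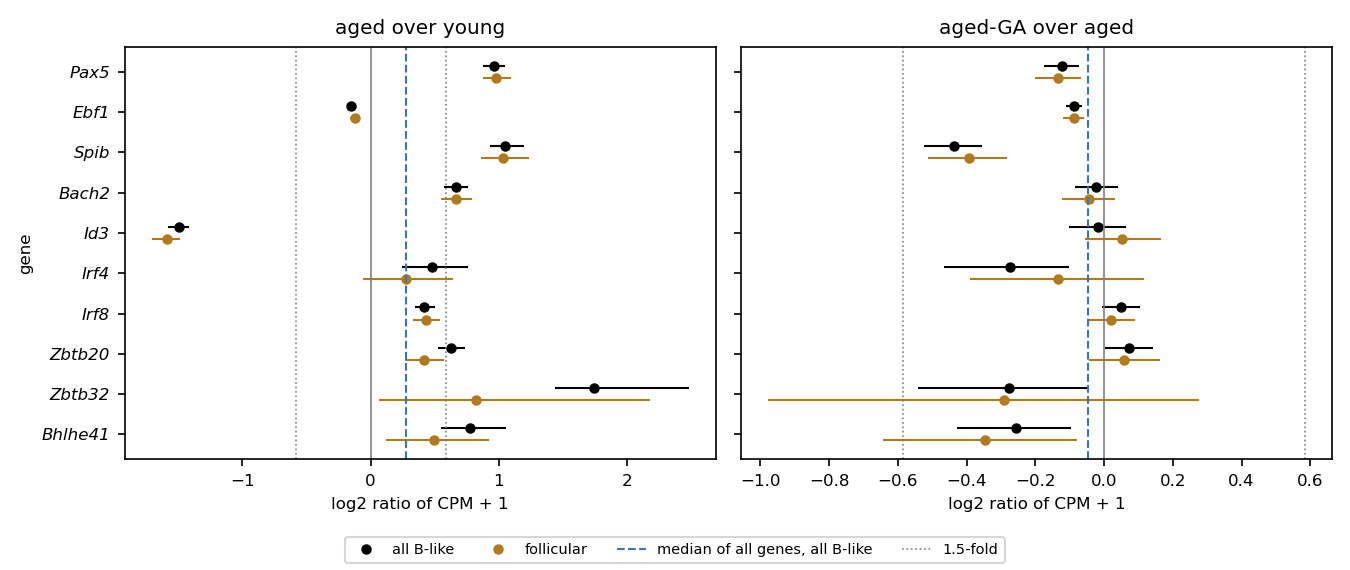
Log2 ratio of CPM + 1 between libraries for the 10 genes in all B-like (black) and follicular B-like cells (brown), aged over young on the left and aged-GA over aged on the right, with 95% counting intervals as bars. The dashed line is the median of all genes in B-like cells and the dotted lines mark 1.5-fold. Pax5 and Spib lie near 1 and Id3 near -1.5 on the left, and no gene lies outside the dotted lines on the right.

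Transcripts of other cell types moved with the group in B-like cells. The 6 erythroid markers summed to 1222, 8259 and 5983 CPM in B-like cells of the young, aged and aged-GA library, the 6 neutrophil markers to 7.19, 260 and 181 CPM, and the 6 classical monocyte markers to 11.5, 158 and 52.2 CPM. The 6 T cell markers summed to 34.8, 39.4 and 64.2 CPM. Pax5 stood at 5.22, 54.6 and 40.7 CPM and Spib at 2.37, 26.7 and 13.3 CPM in erythroid-like cells of the young, aged and aged-GA library, and both stood at 7.10 CPM or less in neutrophil-like and classical monocyte-like cells. The part of transcripts of other cell types in the ratios was not tested. With a stricter gate that asked for at least 10 UMIs of the B cell markers and allowed at most 1 UMI of the T cell markers, 4 of the 10 genes were higher and 1 lower in aged than in young B-like cells, where 24.3% of 8901 genes were higher and 2.18% lower. That gate set no tighter limit on erythroid, neutrophil or monocyte markers, so it cannot tell what part those transcripts had.

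Genes with the most similar pattern were found from the correlation of log2(CPM + 1) over 10 cell classes, among 12302 genes outside the gates. The classes share library depth, and the correlations are given as a description. For Pax5 and Ebf1 the most similar genes included each other (Pearson's r = 0.985), with H2-DMb2, a gene of antigen loading, at 0.991 for Ebf1 and 0.972 for Pax5. For Spib it was Trim7 (0.974), followed by Fcmr (0.966), the IgM receptor, for Bach2 Gm16152 (0.964) and Aff3 (0.958), for Irf8 Rgl1 (0.937) and for Id3 Ice2 (0.945). Irf4 had Tmem144 first (0.960) and Zbtb32 among its first 3 (0.941). Zbtb20 had 5430403G16Rik first (0.963), Zbtb32 2810429I04Rik (0.959) and Bhlhe41 Myzap (0.973).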

How the data were processed

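The deposited files held raw UMI counts per gene and cell barcode, made by the authors with Cell Ranger (5.0.0 in the file headers, mm10) from 10x 3' libraries of PBMCs, 1 library per group. Cells with at least 200 genes, no more than 90% of the largest gene number of the library and at most 7.5% mitochondrial UMIs were kept, the limits of the study's methods. Between 48249945 and 75832322 UMIs remained per library. Scrublet (a score limit of 0.2 in all libraries, since its automatic limit failed in one) marked 4.41% to 5.32% of cells as doublets, which were kept. Gates asked for a minimum number of marker UMIs, set after marker UMIs were seen (at least 5 UMIs of 3 markers for B-like cells), and cells that passed several classes were left out. Cells with more than 10% haemoglobin UMIs were placed in the erythroid-like gate whatever other gate they passed. Cells were not clustered.

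The 10 genes, the gene lists and the markers were chosen with earlier results of these data known. The text names the 10 genes, the listed transcription factors, identity, stress and marker genes, and, for each of the 10, genes from among the 3 with the most similar pattern over classes.

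UMIs were summed per library and gate. Class and subset contrasts used edgeR 4.0.16 (quasi-likelihood, TMM, library as block) in R 4.3.3 with gates of at least 20 cells in a library. Genes with low counts were left out by edgeR's filter by gate, which a gene can pass through the gates where it is high. Samples of a contrast come in pairs from the same library where both gates had at least 20 cells in it. The young library had too few cells in the plasma cell, age-associated, transitional, interferon-responding, classical monocyte, neutrophil and basophil gates. Its B-like or follicular sums had no partner in those contrasts. DESeq2 1.42.0 was an alternative. Groups of 1 library were compared by CPM, with exact Poisson intervals, and by log2 ratios with a pseudocount of 1 CPM and no test. Shares of cells used cells thinned to 2000 UMIs. Scripts were tested on simulated data. Promoter windows came from RefSeq tables of GRCm38.p6.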

Additional observations from a re-analysis of the deposited data

Results flagged for a closer look

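For Bach2, the log2 ratio of aged over young was 0.66 among B-like cells and -0.24 among T-like cells, opposite in sign, and the difference was not tested, since each group is 1 library. Within T-like gates the ratio was 0.26 in naive and 0.04 in memory cells. Naive cells, in which Bach2 was at 89.3 CPM in the young and 107 CPM in the aged library, made up 3959 of 5303 young and 719 of 2052 aged T-like cells, and memory cells, with 26.2 and 26.9 CPM, 200 and 584.

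For Ebf1, the log2 ratio of aged-GA over aged was -0.088 among B-like cells and 0.37 among T-like cells, and this difference was not tested either. Ebf1 in T-like cells stood at 8.91 CPM in the aged and 11.8 CPM in the aged-GA library, from 90 and 248 UMIs, while the 5 B cell markers summed to 53.0 and 75.9 CPM in the same cells. The part of free RNA or mixed droplets in these values was not tested.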

How the results depend on the processing

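Of the 10 genes in B-like cells, 7 were at least 1.5-fold higher or lower in aged than in young mice, and this number was 4 with follicular cells only and 4 with TMM scaling. It was between 5 and 7 under the other 8 alternatives. Of all genes counted, 22.6% were higher and 2.26% lower in the main setting. The shares were 21.3% and 2.38% with follicular cells only and 9.35% and 5.47% with TMM scaling. Under the other alternatives, 8.85% to 24.3% were higher and 1.39% to 3.49% lower. No direction of a called result was turned by any alternative. Between aged-GA and aged mice the number was 0 under all 10 alternatives. Over all class contrasts 86 of 90 values of the 10 genes were called, and over all subset contrasts 16 of 40. Of all genes tested, 12.2% to 31.3% rose and 12.4% to 36.0% fell in a class contrast. In a subset contrast, 0.516% to 11.9% rose and 0.0737% to 9.58% fell. These shares are of the main fits and are not given for the alternatives that follow. Without the replicate block, that is without the library as a term, 81 and 11 were called. With DESeq2, 82 and 14 were called. Leaving out 1 library gave between 74 and 86 calls over classes and between 11 and 16 over subsets, the lowest in both without the aged library, and with that or the aged-GA library out some gates were left with 1 sample, which was assumed to vary like the others. The share of cells with a UMI was higher in B-like than T-like cells in every library for 10 genes at 2000 UMIs. This held for 9 genes unthinned (all but Zbtb20) and for 9 at 1000 UMIs (all but Zbtb32). At 2000 UMIs the intervals overlapped for Zbtb20 in the young library (16.55% against 16.27%). They also overlapped for Zbtb32 in the aged and aged-GA library. The cause of these differences was not tested. Id3 in age-associated cells passed the test with the strict gate alone (log2 -0.60, adjusted p = 0.0342, edgeR). That gate had been planned to let in no marker UMI of other classes, and as run it allowed at most 1 UMI of the T cell markers in B-like cells. Cell number in the small gates limits the young library most, with 27 marginal zone or B-1, 7 age-associated and 1 plasma cell-like cell, and every group has 1 library.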

Other observations

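In B-like cells split by their light chain, Zbtb20 and Bhlhe41 stood higher in lambda than in kappa cells of each library. Lambda cells, of which there were 87 young, 228 aged and 233 aged-GA, held Zbtb20 at 192, 278 and 260 CPM, against 126, 190 and 207 CPM in kappa cells. Bhlhe41 stood at 25.4, 47.4 and 56.3 CPM in lambda and at 21.8, 36.0 and 31.4 CPM in kappa cells, and its intervals overlapped in the young and aged library. Spib stood at 124, 183 and 116 CPM in lambda and at 70.8, 153 and 114 CPM in kappa cells. Its intervals overlapped in the aged and aged-GA library but not in the young. Pax5, Ebf1 and Id3 differed less, with Pax5 at 175, 343 and 347 CPM in lambda and 189, 368 and 338 CPM in kappa cells. No test was run on this split.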
